A study of Mus musculus with 8 samples.

Results

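The expression of 10 genes that hepatocytes transcribe strongly was followed in cultures of hepatic stellate cells: Alb, Ttr, Ahsg, Trf, Serpina1a, Apoa1, Apoa2, Apob, Fgb and Cyp2e1. The members were chosen by name, and every probe that the platform annotation gives to one of these 10 symbols was taken. The annotation names 11 such probes for 9 of the 10 genes, out of 16593 genes and 25697 probes in all. Ahsg and Serpina1a have 2 probes each, the other 7 genes have 1, and no probe carries the symbol Apob. Apob therefore has no array values here and enters the promoter search only.

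Primary stellate cells (passage 0) came from livers of IL15Ra-knockout mice, which have no interleukin-15 receptor alpha (4 samples), and from wild-type controls (4 samples). All mice were bought when 6 weeks old, were labelled female and B6/129, and carried no other allele or treatment that the labels name. The cells were obtained by digesting the liver with pronase and collagenase, separated on a Percoll gradient and cultured with serum, so a culture can hold other liver cells beside stellate cells. Whether each sample is a separate animal is not stated in the labels, so the p-values reflect sample-to-sample spread that may be technical.

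Stellate cells make up a small part of the liver, while hepatocytes form most of its mass and RNA. Hepatocytes secrete most plasma proteins, among them albumin, transferrin, fibrinogen and the apolipoproteins, and their messenger RNAs belong to the most abundant of the organ. Stellate cell preparations are therefore commonly checked for such transcripts. Hepatocytes in culture also lose much of this expression, and several of the genes are expressed by other cells as well, Trf and Ttr among them.

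Each array gave a mean bead signal and a detection p-value for every probe. The detection p is the share of the negative-control beads on the same array that were at least as bright, and a probe is called above background here where it is under 0.05. Between 7765 and 10516 probes were above background on the knockout arrays and between 6760 and 9961 on the control arrays. Knockout 1, knockout 4 and control 3 had the fewest, with 7765, 7830 and 6760, and lay apart from the other 5 arrays along a principal component that took 78.2% of the variance. Probes for the Y-linked genes Uty, Kdm5d and Eif2s3y were above background on all 8 arrays and both Xist probes on none, which goes against the label of female mice. The targeted gene does not check the genotype labels: its 4 probes were above background on no array of either group, with a lowest detection p of 0.178.

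Most of the hepatocyte probes gave no signal above background in either genotype. Alb, Apoa1, Apoa2, Fgb and Cyp2e1 were above background on 0 of 8 arrays, as was 1 of the 2 Ahsg probes. These 6 probes are 54.5% of the 11, and 55.3% of all 25697 probes were likewise above background on no array. Over the 11 probes and 8 arrays, 27 of 88 measurements (30.7%) were above background, against 34.6% over all probes. Transcripts that dominate the RNA of hepatocytes were thus above background no more often here than the average probe. Of the measurements, 17 of 44 were above background on the knockout arrays and 10 of 44 on the control arrays. By array there were 5, 5, 3 and 4 probes above background on knockout 1 to 4, against 5, 3, 1 and 1 on control 1 to 4. The groups overlapped in this number, and a count over chosen genes was not tested.

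**Figure D1:**
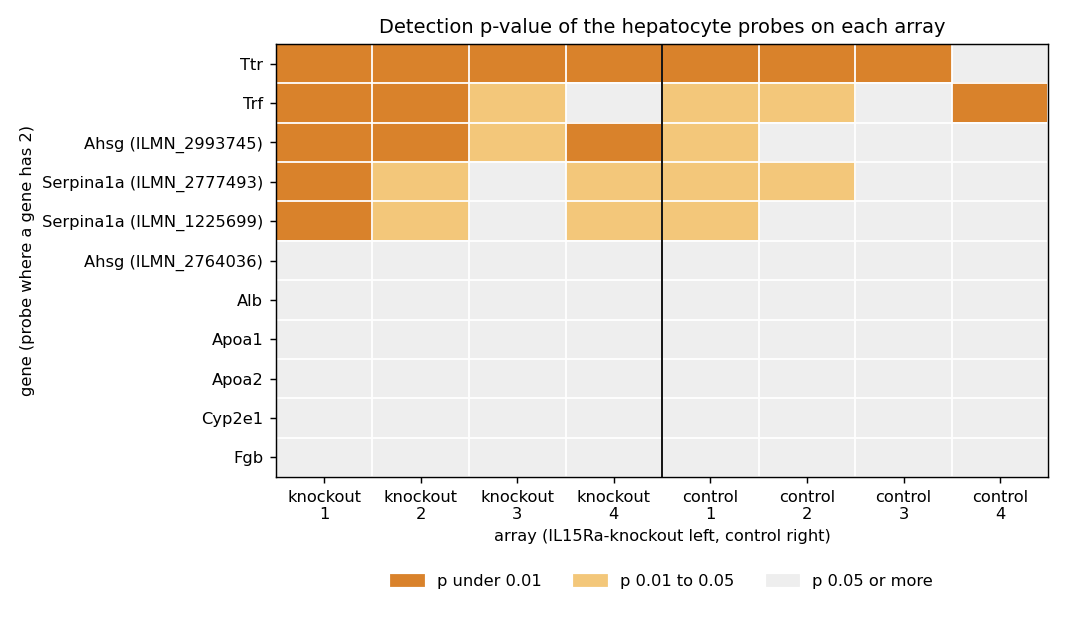
Detection p-value of each of the 11 hepatocyte probes (rows) on each of the 8 arrays (columns, IL15Ra-knockout left of the line, control right), coloured by class: under 0.01, from 0.01 to under 0.05, and 0.05 or more, which is not above background. The 6 lower rows have no coloured cell, and no probe is coloured on all 8 arrays.

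Albumin, the main protein of plasma and the most widely used hepatocyte marker, was the clearest case. Like Apoa1, Apoa2, Fgb and Cyp2e1, it has 1 probe. None of the 8 arrays held liver or hepatocyte RNA that would show how well these probes detect their transcripts. A signal at background is therefore not read as absence of the RNA. Alb (chr5:90460870-90476602, GRCm38.p6) had bead signals of 96.6, 100.8, 101.9 and 102.2 on knockout 1 to 4, against 109.4, 106.3, 110.2 and 119.5 on control 1 to 4. All 8 values lay below the median signal of all probes on their own array, which ranged from 113.6 to 121.4 on the knockout and from 122.9 to 149.8 on the control arrays. The unnormalised signals of the groups did not overlap for Alb, nor for Fgb and the dim Ahsg probe, in the same direction as these array medians, and they are not read as differences in RNA. The array medians of the groups did not overlap either, and the share of all probes without overlap on this scale is not given here. On each array between 68.9% and 96.1% of the negative-control beads were at least as bright as Alb. After background correction and normalisation the log2 values averaged 4.64 ± 0.03 in the knockout and 4.67 ± 0.04 in the control cultures (SD, n = 4 each).

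The apolipoproteins of high-density lipoprotein gave the same picture. Apoa1, the main protein of these particles, had detection p-values between 0.218 and 0.926, and Apoa2, the second most abundant, between 0.202 and 0.707. Fgb, the fibrinogen beta chain that forms the clot, had values between 0.490 and 0.960, and Cyp2e1, the cytochrome P450 that oxidises ethanol and paracetamol, between 0.544 and 0.951. For the 6 probes never above background, 40 of the 48 measurements were dimmer than the typical negative control (detection p above 0.5). Their normalised log2 values all lay between 4.57 and 4.93. In a fit without a filter on dim probes, their log2 differences (knockout minus control) lay between -0.06 and 0.06, with 95% intervals reaching from -0.13 to 0.18 and no unadjusted p under 0.0741, in a fit that called 0.187% of the 25697 probes. These intervals are those of background values on a log scale with an offset of 16 and set no limit on a difference in RNA.

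The promoters of 3 members, read from the RefSeq sequences of GRCm38.p6, are shown because they share an element of the C/EBP factors, which drive many liver genes, while the arrays separate the genes. Alb and Fgb were above background on no array, and Ahsg was above background on 5 with 1 of its 2 probes. Each line holds the 100 bases before the annotated start, on the strand of the gene, 5′ to 3′, with TTGCNNAA or its reverse complement in capitals.
Alb promoter, chr5:90460770-90460869, plus strand: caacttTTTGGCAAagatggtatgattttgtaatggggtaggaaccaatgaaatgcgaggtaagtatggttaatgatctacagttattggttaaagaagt
Fgb promoter, chr3:83049864-83049963, minus strand: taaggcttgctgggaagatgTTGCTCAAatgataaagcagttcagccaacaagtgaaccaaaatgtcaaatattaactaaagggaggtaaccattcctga
Ahsg promoter, chr16:22891915-22892014, plus strand: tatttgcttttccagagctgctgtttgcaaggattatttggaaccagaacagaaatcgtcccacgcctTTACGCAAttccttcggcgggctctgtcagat

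The element began 94 bases before the start in Alb, 80 in Fgb and 32 in Ahsg. Promoters were found for 8 of the 10 members, and 5 of these 8 (Ahsg, Alb, Apoa2, Apob and Fgb) held TTGCNNAA on either strand within 250 bases before the start, against 9.56% of 32851 such windows of the genome. A match describes the letters only. Genes for hepatocyte transcription factors were mostly not above background. Of 14 such genes measured, 10 were above background on no array, among them Cebpa, Foxa1, Foxa2 and Foxa3, while Hnf4a reached 3 arrays.

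The filter for testing, which kept probes above background on at least 4 of the 8 arrays, passed 4 members: Ttr, Ahsg on 1 probe, Trf, and Serpina1a on both probes. These are 5 of the 11 probes (45.5%), and the filter kept 9433 of all probes (36.7%). None of the 5 passed the comparison of knockout with control (limma, adjusted p under 0.05 over the 9433 probes), in which 0.530% of the kept probes were called. At an unadjusted p under 0.05 the count was 1 of 5, against 6.31% of the kept probes. All 5 normalised log2 differences were above 0, with a median of 0.81, against 53.2% of the kept probes above 0 and a median of 0.03. The filter favours probes that are high in 1 group, so these counts and medians describe the probes that passed and are no support for a shift. The shared direction also depends on normalisation. The mean unnormalised signal was lower in the knockout for Trf (143.4 against 168.1) and Serpina1a probe ILMN_2777493 (141.5 against 166.8). It was higher in the knockout for the remaining kept hepatocyte probes.

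**Figure D2:**
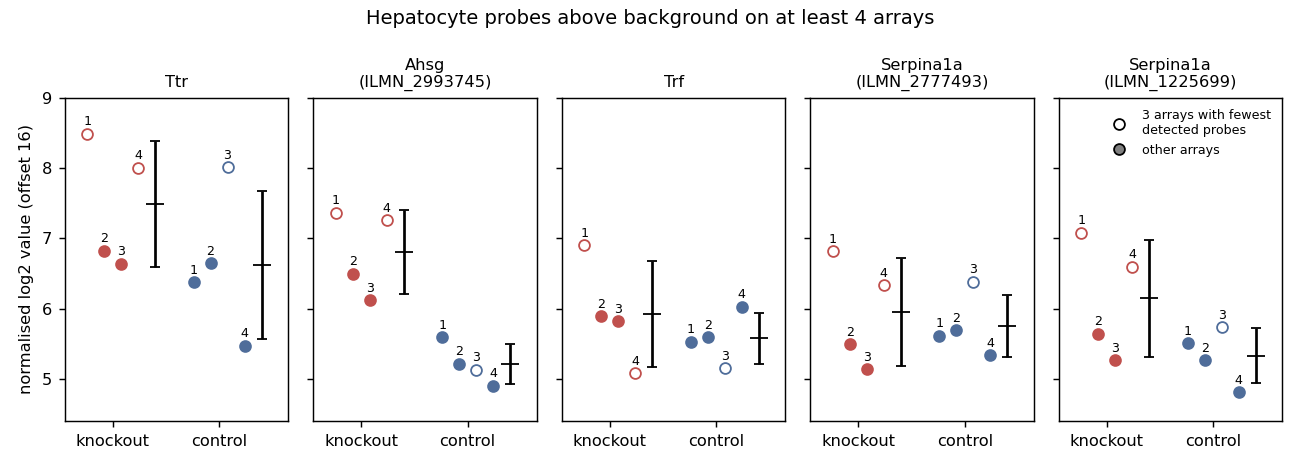
Normalised log2 value (y axis, offset 16) of the 5 hepatocyte probes above background on at least 4 arrays, for the IL15Ra-knockout (left in each panel) and control arrays (right), with the replicate number beside each point. Bars show mean and SD (n = 4 each), and open circles are knockout 1, knockout 4 and control 3. The groups are separate for the Ahsg probe only.

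Ahsg encodes fetuin-A, a plasma glycoprotein that binds calcium phosphate and hinders calcification. On the probe ILMN_2993745 of Ahsg (chr16:22892015-22899451, GRCm38.p6) the bead signals were 175.3, 185.4, 159.2 and 200.9 on knockout 1 to 4, against 151.2, 131.5, 146.6 and 140.8 on control 1 to 4. The normalised log2 values were 7.36, 6.50, 6.12 and 7.26 on the knockout arrays, against 5.59, 5.21, 5.13 and 4.90 on the control arrays. The groups did not overlap on either scale, and the probe was above background on 4 of 4 knockout arrays and on 1 of 4 control arrays. Among all kept probes, 3.12% lay wholly higher in the knockout without overlap on the normalised scale.

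The mean was 6.81 ± 0.60 in the knockout and 5.21 ± 0.29 in the control cultures (SD, n = 4 each). The log2 difference was 1.60 (standard error 0.34, 95% interval 0.83 to 2.38), and the limma adjusted p of 0.119 (unadjusted 0.00114) missed the threshold. Since 3 of the 4 control values were not above background, this difference depends on how background is treated, and it was 0.68 without background correction. Over the alternatives the log2 difference stayed between 0.65 and 1.83 and the adjusted p between 0.00579 and 0.608. The call was made under a single alternative, with the number of probes above background per array as a covariate (adjusted p = 0.00579), a fit that called 7.10% of the kept probes. The other probe, ILMN_2764036, was above background on no array, with detection p-values between 0.633 and 0.995, and averaged 4.64 ± 0.05 in the knockout and 4.63 ± 0.04 in the control cultures. The probes of Ahsg therefore disagree, and the sequences they target were not used here.

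**Figure D3:**
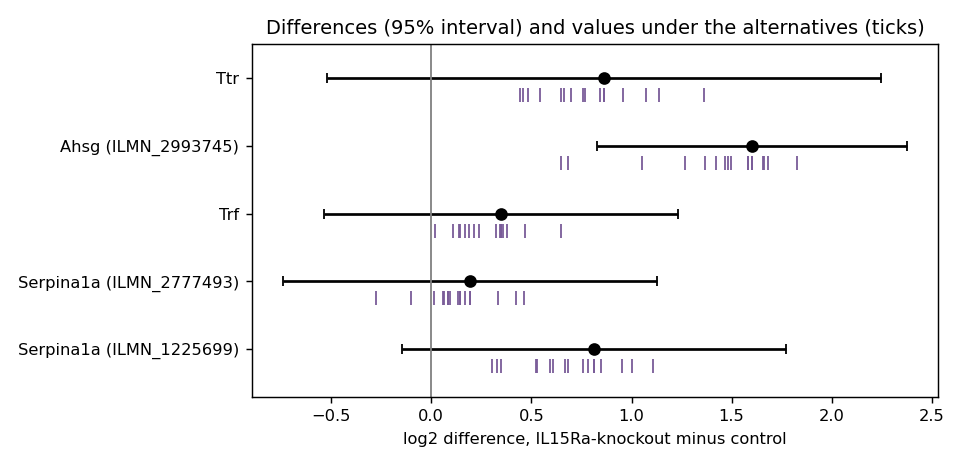
Log2 difference (x axis, IL15Ra-knockout minus control) of the 5 hepatocyte probes that passed the filter, with its 95% interval (points and bars), and the values under the alternative settings (ticks). The interval of the Ahsg probe lies above 0 before adjustment for the 9433 probes, and those of the other 4 probes include 0.

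Ttr encodes transthyretin, which carries thyroxine and, with retinol-binding protein, vitamin A in plasma. It was the member above background on the most arrays, 4 of 4 knockout and 3 of 4 control, and on control 4 its detection p was 0.0501. Ttr (chr18:20664209-20674326, GRCm38.p6) had bead signals of 284.3, 213.6, 186.8 and 286.0 on knockout 1 to 4, against 196.5, 202.7, 299.2 and 185.1 on control 1 to 4. Its high values were those of knockout 1, knockout 4 and control 3, the 3 arrays with the fewest probes above background, at 284.3 to 299.2, against 185.1 to 213.6 on the other 5. The normalised log2 values were 8.49, 6.82, 6.64 and 8.01 in the knockout, against 6.37, 6.65, 8.02 and 5.47 in the control cultures, and the groups overlapped. The mean was 7.49 ± 0.90 in the knockout and 6.63 ± 1.05 in the control cultures (SD, n = 4 each), a log2 difference of 0.86 with a 95% interval from -0.52 to 2.25 and a limma adjusted p of 0.913. Without those 3 arrays the log2 difference of Ttr was 0.65, with a limma adjusted p of 0.561, in a fit that called 1.78% of the kept probes.

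Serpina1a encodes a mouse form of alpha-1-antitrypsin, the inhibitor of neutrophil elastase. On probe ILMN_1225699 of Serpina1a (chr12:103853295-103863619, GRCm38.p6) the normalised log2 values were 7.08, 5.64, 5.26 and 6.60 on knockout 1 to 4, against 5.51, 5.27, 5.74 and 4.81 on control 1 to 4. On probe ILMN_2777493 they were 6.82, 5.49, 5.14 and 6.34, against 5.61, 5.69, 6.38 and 5.33. The groups overlapped on both probes, and knockout 1, knockout 4 and control 3 held the 3 highest normalised values on each. Control 3 was not above background on either probe (detection p of 0.133 on the first and 0.0764 on the second). The first probe was above background on 3 knockout and 1 control arrays, the second on 3 and 2. On bead signal the second probe reached 175.4 on control 4, above knockout 1 (152.7) and knockout 4 (158.1). The log2 difference was 0.81 (95% interval -0.15 to 1.77, limma adjusted p = 0.902) on the first probe and 0.19 (-0.74 to 1.13, adjusted p = 0.932) on the second. The second probe changed direction without knockout 1 (-0.10) and without the 3 arrays with the fewest probes above background (-0.28). Mice carry several closely similar Serpina1 genes, and whether these probes also bind the relatives was not tested, so the assignment to Serpina1a is uncertain. Of 6 probes named for the relatives Serpina1b to Serpina1f, 5 were above background on no array, and 1 probe of Serpina1b was above background on 6.

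The pattern shared by Ttr and both Serpina1a probes is frequent on these arrays. Among all kept probes, 36.1% had their 3 highest normalised values on knockout 1, knockout 4 and control 3, and 3 of the 5 hepatocyte probes did. Over the 8 arrays, the Pearson coefficient with Ttr was 0.897 and 0.900 for the Serpina1a probes, 0.66 for the Ahsg probe and 0.04 for Trf, with a median of 0.36 over all kept probes. The genes outside the lists with the values most like Ttr were Rcan3, Mab21l2, Gabarapl2, Slc30a4 and Jpt1, with coefficients between 0.990 and 0.993 over the 8 arrays. Being chosen for likeness to Ttr, all 5 likewise had their highest values on those 3 arrays. The part of the number of probes above background in the levels of Ttr and Serpina1a was not tested beyond these values.

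**Figure D4:**
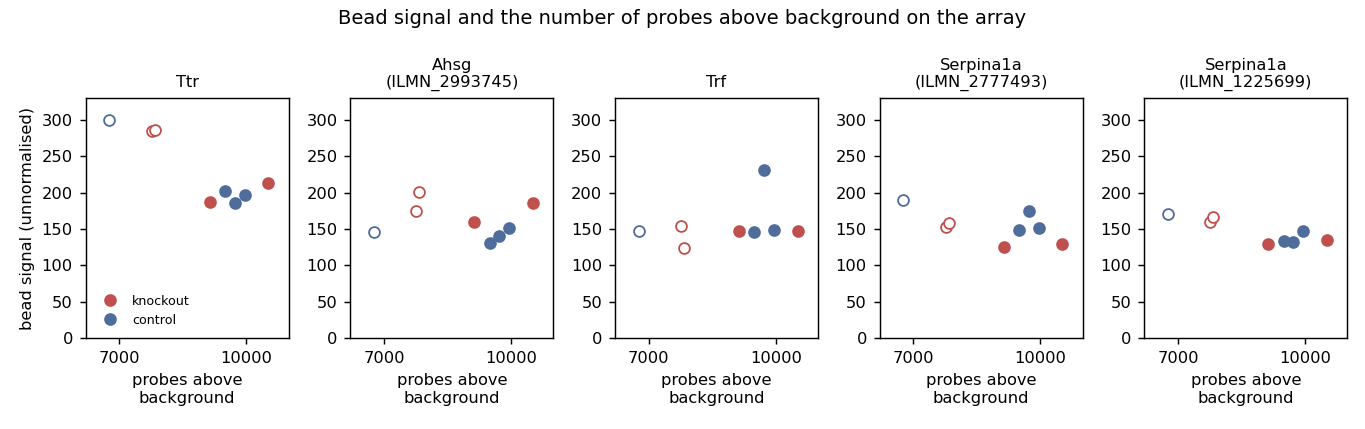
Unnormalised bead signal (y axis, starting at 0) of the 5 hepatocyte probes against the number of probes above background on the same array (x axis), with knockout arrays in red and control arrays in blue. The open circles are knockout 1, knockout 4 and control 3, which have the highest Ttr signals, from 284.3 to 299.2, but not the highest Trf signals.

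Trf encodes transferrin, the iron carrier of plasma, and is also made outside the liver. On its probe (chr9:103208876-103230286, GRCm38.p6) the bead signals were 154.6, 147.0, 147.8 and 124.2 on knockout 1 to 4, against 148.6, 145.4, 147.5 and 230.9 on control 1 to 4. Control 4 stood above the other 7 arrays on this scale. It also had the highest median signal of all arrays (149.8), and after normalisation the highest Trf value was that of knockout 1. The normalised log2 values were 6.90, 5.89, 5.82 and 5.08 in the knockout, against 5.53, 5.59, 5.15 and 6.03 in the control cultures. The mean was 5.92 ± 0.75 in the knockout and 5.58 ± 0.36 in the control cultures (SD, n = 4 each), a log2 difference of 0.35 (95% interval -0.54 to 1.23, limma adjusted p = 0.913). Trf was above background on 3 of 4 arrays in each group.

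A wider view of hepatocyte functions came from 5 lists with 107 measured genes. Of these, 76 were above background on no array, 12 on 1 to 3 arrays and 19 on 4 or more. By probe, 128 of 164 (78.0%) were never above background, against 55.3% of all probes. Among clotting factors, plasma carriers and inhibitors, 17 of 27 genes were never above background, including Fga, F2, Plg, Hpx and Serpinc1. The cytochrome P450 list held 20 of 24 such genes, including Cyp3a11, Cyp1a2 and Cyp7a1, the rate-limiting enzyme of bile acid synthesis. Of 30 enzymes and transporters of the urea cycle and of amino acid, glucose and bile acid handling, 23 were never above background, including Cps1, Otc, Tat, G6pc and Pck1.

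**Figure D5:**
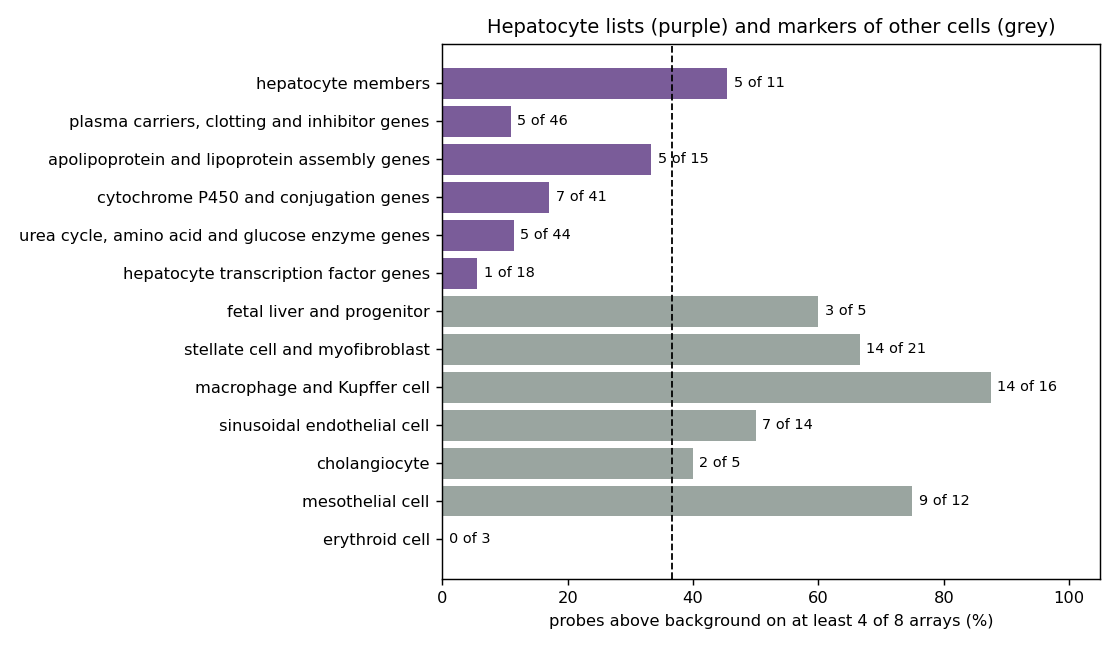
Share of the probes of each list that were above background on at least 4 of the 8 arrays (x axis, percent), with the number of probes beside each bar. Hepatocyte lists are purple, lists of fetal liver genes and markers of other cells grey, and the dashed line is the share over all probes, 36.7%.

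The probes of other cells in the same cultures give a scale for these counts. Of the probes for stellate cell and myofibroblast markers, 14 of 21 were above background on at least 4 arrays, with Acta2, Dcn and Col3a1 the highest in signal. Lrat, Lum, Gfap, Hand2 and Lhx2 of this list did not pass the filter, which left 11 of its 16 genes. Of the 11 stellate genes tested, Col1a2, a chain of type I collagen, rose 3.57-fold in the knockout cultures (13.74 ± 0.04 in the knockout and 11.90 ± 0.45 in the control cultures, SD, n = 4 each, limma adjusted p = 0.00478). The collagen genes Col1a1 and Col3a1 had log2 differences of 0.06 and -0.21, with limma adjusted p-values of 0.987 and 0.913. Reln, which encodes reelin, fell 3.05-fold (9.42 ± 0.34 in the knockout and 11.03 ± 0.35 in the control cultures, adjusted p = 0.0289), and its call was lost without each array other than control 3 (0.0563 to 0.162), with median scaling (0.0572) and without a filter (0.0530). Of the macrophage and Kupffer cell probes it was 14 of 16, led by Adgre1, Lyz2 and Ctss, of the mesothelial probes 9 of 12, led by Upk1b, Wt1 and Gpm6a, and of the sinusoidal endothelial probes 7 of 14, led by Emcn, Fcgr2b and Clec4g. The endothelial genes Kdr, Cdh5, Tie1 and Flt4 did not pass the filter. Of the cholangiocyte probes it was 2 of 5, those of Krt7 and Tspan8, and of the erythroid probes 0 of 3. Among fetal liver genes, Gpc3, Igf2 and Afp passed the filter, and none of them was called. Afp, the fetal counterpart of albumin, averaged 7.61 ± 0.90 in the knockout and 6.74 ± 0.92 in the control cultures (SD, n = 4 each, limma adjusted p = 0.913), and was above background on all 8 arrays while Alb was on none. Afp and Gpc3 had their 3 highest log2 values on knockout 1, knockout 4 and control 3, as did 36.1% of all kept probes. The 7 genes of the mesothelial list all had log2 differences above 0 (median 0.65, none called). This list includes the keratin genes Krt8 (0.65) and Krt18 (1.38). Its probe count and median are therefore not read as specific to mesothelial cells. The 6 endothelial genes that passed the filter, of 10 measured, were all below 0 (median -0.70, none called). Over the 7361 tested genes, 55.4% were above 0. These are counts over chosen genes measured on the same arrays, and they were not tested. The part of these stellate, mesothelial and endothelial values in the hepatocyte gene values was not tested.

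Of the 19 tested genes of the 5 wider lists, 2 fell and none rose in the knockout cultures, against 42 called of 7361 tested genes. Their median log2 difference was -0.12, against 0.05 over the 7361 genes, and it ranged over the lists from -1.11 for the P450 genes to 0.80 for the plasma protein genes. These medians rest on the genes that passed the filter, 4 of 24 P450 genes and 5 of 27 plasma protein genes. Without a filter the plasma protein median was 0.04, and the apolipoprotein median went from -0.65 to 0.0005. They are therefore no support for a shift of a list. In bulk cultures, fewer cells of a type and less RNA per cell cannot be told apart. Hal, which encodes histidine ammonia-lyase, the first enzyme of histidine breakdown in liver and skin, had log2 values of 6.04, 6.12, 6.15 and 6.63 on knockout 1 to 4, against 10.80, 10.68, 10.48 and 9.86 on control 1 to 4. The groups did not overlap, which held in either direction for 5.02% of the kept probes, and Hal was 18.7-fold lower (log2 difference -4.22, standard error 0.30, limma adjusted p = 0.000321). Hal was above background on 3 of 4 knockout arrays, and its log2 difference was smaller, at -3.09, without background correction and -2.97 with the authors' normalised values, still called in both. Cyp7b1, an oxysterol hydroxylase of the alternative bile acid pathway, had values of 7.41, 7.27, 7.49 and 7.87, against 8.72, 9.70, 9.12 and 9.50. Its groups did not overlap, it was 3.37-fold lower (log2 difference -1.75, standard error 0.30, adjusted p = 0.0472), and the call was lost without each array other than control 3, with adjusted p-values from 0.0882 to 0.244. The Cyp7b1 call was also lost with an offset of 50 (limma adjusted p = 0.0553), no background correction (0.0591), the authors' values (0.0607), no filter (0.101) and median scaling (0.125).

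Other enzymes differed in both directions without being called. Fah, which encodes the last enzyme of tyrosine breakdown, averaged 11.29 ± 0.45 in the knockout and 9.51 ± 0.68 in the control cultures (SD, n = 4 each), and its limma adjusted p was 0.0940. Fah was called with median scaling (adjusted p = 0.0330), with cyclic loess (0.0487), without control 3 (0.0203), without the 3 arrays with the fewest probes above background (0.0380) and with their number as a covariate (0.000930). Cyp27a1, the mitochondrial sterol 27-hydroxylase of liver and macrophages, averaged 9.88 ± 0.34 in the knockout and 10.69 ± 0.45 in the control cultures (adjusted p = 0.461). The glutathione transferase genes Gsta3 and Gstp1 had log2 differences of 1.00 and -1.40, both with an adjusted p of 0.913. Ass1, Khk and Aldh1l1 had differences of 0.22, -0.44 and -0.29, all with an adjusted p of 0.913.

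Of the other apolipoprotein genes, Apoa4, Apoa5, Apoc3 and Apoh were, like Apoa1 and Apoa2, above background on no array. Apoc4 and Apoc2 passed the filter, with log2 differences of 0.12 and -0.17 and limma adjusted p-values of 0.954 and 0.933. Apoc1 and Apoe, which macrophages also express, were above background on all 8. Apoc1 had log2 values of 12.21, 11.34, 11.53 and 12.23 on knockout 1 to 4, against 12.80, 13.03, 13.43 and 12.60 on control 1 to 4. The Apoc1 groups did not overlap, and the adjusted p was 0.136 (log2 difference -1.14, standard error 0.25, limma). A second Apoc1 probe ranged from 5.24 to 9.76 on the knockout arrays and from 7.34 to 11.74 on the control arrays, and its groups overlapped. Apoc1 was called with cyclic loess (adjusted p = 0.0236), without the 3 arrays with the fewest probes above background (0.00444) and with their number as a covariate (0.000139). Apoe averaged 8.78 ± 1.04 in the knockout and 10.79 ± 1.57 in the control cultures (SD, n = 4 each, adjusted p = 0.617). Beside these values, 8 of 11 macrophage and Kupffer cell genes had log2 differences below 0, with a median of -0.49 and none called. Over the 7361 tested genes, 55.4% were above 0. The part of the macrophage and Kupffer cell genes in the Apoc1 and Apoe values was not tested.

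Among secreted proteins, Ambp, F10, F9, Fgg and Itih4 passed the filter and none was called. Itih4, which encodes an acute-phase inhibitor chain, was above background on 4 of 4 knockout and on 0 of 4 control arrays. It therefore passed the filter through the knockout arrays alone. Its log2 difference was 0.99 (limma adjusted p = 0.491), 0.40 without background correction and 0.38 with the authors' normalised values. Against the lowest value of any probe above background on each control array, the knockout mean was 1.38-fold higher, without allowance for sampling error. Ambp, F9 and Fgg had log2 differences of 0.80, 0.96 and 0.01, and F10 of -0.08, with adjusted p-values of 0.913, 0.872, 0.994 and 0.975. Nr1h4, the bile acid receptor FXR, was the only gene of the transcription factor list above background on at least 4 arrays, with a difference of -0.12 and an adjusted p of 0.960. Ambp, F9, F10, Fgg, Apoc4, Gsta3 and Nr1h4 had their 3 highest log2 values on knockout 1, knockout 4 and control 3. The same held for 36.1% of all kept probes.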

How the data were processed

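Total RNA of 8 samples was hybridised to Illumina MouseRef-8 v2.0 BeadChips, 1 array each. The deposited table holds, per the file headers, a mean bead signal, an intensity that is not normalised, and a detection p-value per probe and array. Each array's lowest signal lies far above 0, and whether background was subtracted is not stated. The authors' quantile normalised intensity values, so described in the labels and deposited as another table, entered as an alternative. The submitters' processing notes name GenomeStudio 3. The platform annotation gives 23978 of the 25697 probes 1 symbol and 0 several, and 1719 are unnamed here.

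The neqc function of limma 3.58.1 (R 4.3.3) corrected the signals for background, added an offset of 16, normalised them by quantiles and took log2. Knockout and control were compared over the 9433 probes whose detection p was below 0.05 on 4 or more arrays, using lmFit and eBayes (with trend) and Benjamini-Hochberg adjustment. Folds of dim genes are drawn towards 1 by the offset, and the number of arrays limits precision. Lists took the kept probe with the highest mean value per gene. The alternatives changed the background correction, offset, scaling, filter, variance model and arrays, and added a replicate block or a covariate. A run of the fit on simulated data used independent noise for each probe. It left out the principal component shared by the arrays, so it does not check the fit where that component is present. No chip positions were given.

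Genes named are the members, the brightest and lowest-p genes of each list (up to 5 and 3, and 3 per marker list), all called genes of the hepatocyte lists, and those most like Ttr. Col1a2, Reln, the Serpina1 relatives, the Y-linked genes and examples of undetected genes were chosen after values were seen. The members, lists and alternatives were chosen with earlier results of these data known.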

Additional observations from a re-analysis of the deposited data

Results flagged for a closer look

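In 3 of 60 groups of 4 samples, 1 value stood far from the others by Dixon's criterion, which chance meets in about 1 in 20 groups. The unnormalised Ttr signal of control 3 was 299.2, above the other control arrays, and that of Trf on control 4 was 230.9. The log2 value of Ass1 on knockout 4 was 10.37, below the other knockout arrays.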

How the results depend on the processing

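The 5 tested hepatocyte probes were refitted under 95 combinations of probe and setting. In 92 the direction and the side of the threshold were as in the report. The fits without a filter, without a variance trend, with a robust variance model and with a replicate block keep the log2 difference of the main fit. The direction could therefore not change in them. The Ahsg probe was called when each array's detected-probe number was a covariate (log2 difference 1.58, 1 of 5 probes called), and the second Serpina1a probe was below 0 without knockout 1 (-0.10) and without knockout 1, knockout 4 and control 3 together (-0.28); the cause was not tested. Leaving out 1 array each gave log2 differences of 0.48 to 1.36 for Ttr, 1.42 to 1.83 for Ahsg, 0.02 to 0.65 for Trf, and -0.10 to 0.46 and 0.52 to 1.11 for Serpina1a, with 0 calls. No member was above background at a detection p under 0.01 on all arrays, so that filter gave no value, and at 0.01 the measurements above background were 15 of 88 against 27. Over all kept probes, 50 were called, against 91 with median scaling, 95 with cyclic loess, 17 with the stricter detection filter, 3 with the replicate block, 168 without those 3 arrays, 670 with the covariate and 22 to 125 without 1 array each. Deviations of same-numbered samples from their group means had correlations from -0.82 to 0.60. Those of knockout 1 and knockout 4 with control 3 were 0.79 and 0.88, and these 3 arrays lay together along the main principal component. The correlations therefore cannot decide whether same-numbered samples belong together. With the replicate block no gene of the hepatocyte lists was called, 0 in the P450 list and 0 in the enzyme list. The limma adjusted p was then 0.0665 for Hal and 0.524 for Cyp7b1. Col1a2 (0.0667) and Reln (0.340) were not called with it either. The P450 list had 1 called gene, against 0 with median scaling, an offset of 50, no filter, no background correction or the authors' values, 3 with the covariate and 0 to 1 without 1 array each. The enzyme list had 1, against 2 with median scaling, cyclic loess, the covariate or without the 3 arrays, 0 with the stricter detection filter, which removes Hal, and 1 to 2 without 1 array each. The apolipoprotein list had 0, against 1 with cyclic loess or without the 3 arrays and 2 with the covariate, and the plasma protein list had 0, against 2 with the covariate. Alb, Apoa1, Apoa2, Fgb and Cyp2e1 were near background, where a difference was not detectable.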
